A study of Mus musculus with 3 samples.

Results

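Gfi1b, its close relative Gfi1 and 5 genes of the corepressor complex that both proteins recruit (Kdm1a, Rcor1, Hmg20b, Hdac1 and Hdac2) were examined for open chromatin in embryonic mouse liver. These 7 genes were taken by name from 21911 annotated protein-coding genes. The rule uses no measured value, but the genes were chosen with earlier results of these data known. For each gene the promoter peaks, the distal peaks in the gene or within 50 kb of its ends, and the footprints in those peaks were collected. DNase-seq had been performed on liver of embryos at 13.5 days, in 1 group of 3 biological replicates. All 3 came from a mixed C57BL/6N,129 strain with an HS2 HS3 deletion, given by the labels as a homozygous globin mutation. HS2 and HS3 are known as hypersensitive sites of the β-globin locus control region, on a chromosome that holds none of the 7 genes. The replicates have separate biosample records but share 1 donor record, so their spread may be partly technical. No unaltered liver was analysed here.

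GFI1B and GFI1 are zinc-finger repressors that bind DNA at sites with an AATC core. Through a short N-terminal SNAG domain they recruit the histone demethylase LSD1, the product of Kdm1a, which is held on chromatin by CoREST (Rcor1) together with the deacetylases HDAC1 and HDAC2 and the HMG-box subunit HMG20B. GFI1B is needed for red cell and platelet production, GFI1 acts mainly in stem cells, lymphocytes and granulocytes, and each protein is known to repress both genes.

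The peak lists of the 3 replicates differed in length. The shorter of 2 deposited lists, used here, held 28209, 57314 and 41319 peaks for replicates 1, 2 and 3. The median peak signal ran the other way, at 2.10, 1.06 and 1.37, so a weak peak was least likely to be listed in replicate 1. Of the erythroid markers, 8 of 8 had a promoter peak in every replicate, against 50.9% of all protein-coding genes. The hepatoblast markers had such a peak in every replicate for 0 of 6 genes, the macrophage markers for 0 of 5, the neutrophil and monocyte markers for 0 of 5 and the endothelial markers for 0 of 5. In single replicates 1, 4 and 1 of the 6 hepatoblast markers were open. Megakaryocyte markers were open throughout for 1 of 5 genes, Itga2b, and stem and progenitor markers for 2 of 5, Kit and Meis1. B lymphoid markers were open throughout for 2 of 5, Vpreb1 and Ebf1, and T lymphoid markers for 1 of 5, Lck. The Vpreb1 peak also covers a start of Top3b. In bulk tissue a signal from few cells and a weak signal in many cells cannot be told apart.

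The sequences at the Gfi1b and Gfi1 starts are shown first, because the promoters were among the places where these genes differed. The RefSeq promoters below, in GRCm38.p6 and on the minus strand, run from 250 bases before the start to 50 after it. Their coordinates are chr2:28621933-28622232 for Gfi1b and at chr5:107725756-107726055 and chr5:107724294-107724593 for the starts of Gfi1. Capitals mark exact motif matches on either strand.
Gfi1b promoter 1: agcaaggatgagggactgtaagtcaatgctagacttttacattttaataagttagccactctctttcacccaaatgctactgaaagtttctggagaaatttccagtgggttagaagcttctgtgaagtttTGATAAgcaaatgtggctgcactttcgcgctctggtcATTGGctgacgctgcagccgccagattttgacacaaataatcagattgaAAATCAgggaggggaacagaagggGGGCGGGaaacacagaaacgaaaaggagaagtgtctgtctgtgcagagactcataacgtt
Gfi1 promoter 1: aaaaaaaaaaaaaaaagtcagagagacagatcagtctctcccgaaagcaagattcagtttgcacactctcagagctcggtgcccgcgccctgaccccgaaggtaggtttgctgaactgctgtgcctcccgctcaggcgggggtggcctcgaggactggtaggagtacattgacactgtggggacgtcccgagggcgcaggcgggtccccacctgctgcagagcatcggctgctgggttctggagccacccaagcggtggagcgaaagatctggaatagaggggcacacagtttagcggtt
Gfi1 promoter 2: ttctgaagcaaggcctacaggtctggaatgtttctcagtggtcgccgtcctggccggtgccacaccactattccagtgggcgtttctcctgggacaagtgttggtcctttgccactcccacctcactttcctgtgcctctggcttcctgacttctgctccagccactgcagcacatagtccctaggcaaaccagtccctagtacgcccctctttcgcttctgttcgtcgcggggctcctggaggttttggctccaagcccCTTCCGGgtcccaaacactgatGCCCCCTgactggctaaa

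The Gfi1b window held 1 match each to a GATA motif (TGATAA), the CCAAT box (CCAAT), the GFI1 motif (AAATCA) and a KLF/SP motif (CCCGCCC), which began at -120, -83, -34 and -10 bp from the start. Among 32851 RefSeq promoters of this length, 9.05% held TGATAA, 37.4% CCAAT, 14.0% AAATCA and 25.6% CCCGCCC. The Gfi1b promoter had 4 AATC cores counting both strands, a count chosen after the sequence had been seen. As many or more were found in 10.1% of promoters, whose median was 1. The first Gfi1 promoter had 1 AATC core and none of the motifs searched, and the second had 0 AATC cores, 1 ETS motif (CCGGAAG) and 1 CTCF core (AGGGGGC). Of the 4 Gfi1b matches, only the KLF/SP motif touched a footprint, by 1 base in replicate 2 and 5 bases in replicate 3.

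Gfi1b had a weak open promoter and Gfi1 had none. Gfi1b (ENSMUSG00000026815.14) spans 28609450 to 28621982 of chromosome 2 on the minus strand and has 3 annotated start positions. The signal of its promoter peak, given as its highest depth-normalized cut density, reached 1.71 and 1.67 in replicates 2 and 3, and the shorter list of replicate 1 held no peak there. Those 2 peaks stood at the 66.3rd and 58.3rd percentile of all peaks of their replicates. They held 3 and 4 footprints, the short stretches that are cut less than their surroundings and can mark bound protein. In replicate 1 the longer list did hold a peak at the same place (28621861 to 28622001), with a signal of 1.51 and 0 footprints. Such a promoter peak was listed for 51.4%, 57.5% and 55.5% of genes in replicates 1, 2 and 3. The Gfi1b promoter was therefore listed in 2 of 3 replicates by the shorter list and in 3 of 3 by the longer.

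The cut density file gives a measure at the Gfi1b start without use of the peak lists, though it comes from the same libraries. Of the 1001 bases within 500 bp of the gene start, 188, 430 and 494 passed a false discovery rate (FDR) of 0.05 in replicates 1, 2 and 3. At an FDR below 0.001 the numbers were 0, 310 and 388. Replicate 1 was the lowest by both limits. A further Gfi1b peak lay upstream of the promoter, centred at -0.735 and -0.7185 kb in replicates 2 and 3, with signals of 1.62 and 1.78. It was as strong as the promoter peak, held 1 footprint in each, and falls between the promoter and distal classes.

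Gfi1 (ENSMUSG00000029275.18) spans 107716657 to 107726036 of chromosome 5 on the minus strand and also has 3 annotated starts. Neither peak list of any replicate held a peak within 500 bp of them, as for 41.1% of genes by the shorter list. No base of those windows passed an FDR of 0.05 in any replicate, and in the whole gene body 0, 61 and 0 bases of 9380 did. Around each Gfi1 start, 970 of 970 words of 32 bases occur once in the genome, so the sequence there is mappable. The corresponding share around the Gfi1b gene start was 96.0%. Over the gene and 50 kb on either side, the share of bases with an FDR below 0.05 was 4.81%, 7.27% and 10.8% for Gfi1b and 0.658%, 1.44% and 0.858% for Gfi1. The lowest replicate of Gfi1b was above the highest of Gfi1. These stretches also hold starts of neighbouring genes. At those the shorter lists had 2, 5 and 3 peaks around Gfi1b and 1, 1 and 1 around Gfi1. In the gene bodies alone the shares were 6.47%, 11.7% and 26.6% for Gfi1b and 0%, 0.650% and 0% for Gfi1. A ratio of promoter signals has no value, since Gfi1 had no peak.

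The corepressor genes all had open promoters. Kdm1a, Rcor1, Hmg20b, Hdac1 and Hdac2 had a promoter peak in every replicate, so 5 of the 7 genes (71.4%) did, against 50.9% of all genes. By the longer list 6 did, against 55.7% of all genes. No promoter peak of the 7 genes covered the start of another protein-coding gene. The strongest signals belonged to Hmg20b, Hdac1 and Rcor1, whose order changed between replicates, followed in every replicate by Kdm1a and then Hdac2. In replicates 2 and 3, Gfi1b was below all 5.

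**Figure D1:**
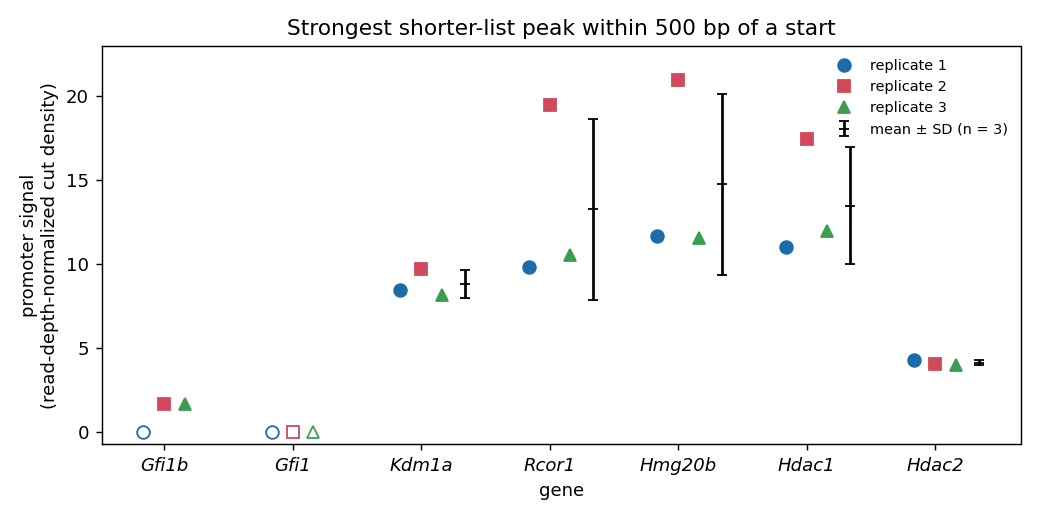
Promoter peak signal (depth-normalized cut density, vertical axis) of the 7 genes in each of the 3 replicates, with the mean ± SD for genes listed in all 3. Hmg20b, Hdac1 and Rcor1 lie highest, Hdac2 has the smallest spread, Gfi1b is listed in replicates 2 and 3 only, and Gfi1 is at 0 because no peak was listed.

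The demethylase gene Kdm1a (ENSMUSG00000036940.15; chromosome 4, 136550540 to 136602723, minus strand) had promoter signals of 8.45, 9.76 and 8.20 in replicates 1, 2 and 3. Their mean was 8.81 ± 0.833 (SD, n = 3), at the 75.0th percentile of the 11146 genes open in all replicates. Its main peak covered the same 220 bp, 136602681 to 136602900, in all 3 replicates and held 5, 4 and 5 footprints.

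Rcor1 (ENSMUSG00000037896.17; chromosome 12, 111039351 to 111115901, plus strand), which encodes the CoREST scaffold, had promoter signals of 9.83, 19.5 and 10.6. The mean was 13.3 ± 5.38 (SD, n = 3), at the 94.4th percentile. The main Rcor1 peak also had the same limits in all 3 replicates, 111039101 to 111039300. Replicate 2 stood above the other two, which were close together.

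Hmg20b (ENSMUSG00000020232.17; chromosome 10, 81346048 to 81350480, minus strand) had signals of 11.7, 21.0 and 11.6. The mean of 14.8 ± 5.40 (SD, n = 3) was at the 97.0th percentile, the highest of the 7 genes. Hmg20b has 13 annotated start positions, and 2 internal ones carried weaker peaks in replicates 2 and 3. The peak 3.66 kb into the gene reached 2.82 and 2.12 there, and the one about 1.2 kb in reached 2.73 and 1.88. The longer list of replicate 1 also held both, at 2.34 and 2.24.

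Hdac1 (ENSMUSG00000028800.15; chromosome 4, 129516104 to 129542713, minus strand), one of the paired deacetylases, had promoter signals of 11.0, 17.5 and 12.0, with a mean of 13.5 ± 3.48 (SD, n = 3) at the 94.9th percentile. Hdac2 (ENSMUSG00000019777.16; chromosome 10, 36974544 to 37001889, plus strand), which encodes the other deacetylase, had 4.31, 4.10 and 4.04, a mean of 4.15 ± 0.142 (SD, n = 3) at the 36.7th percentile. The signal of Hdac1 was above that of Hdac2 in each replicate. The strongest Hdac2 promoter peak was 480 bp wide in replicates 1 and 3, at 36974161 to 36974640, and replicate 2 listed 2 adjoining peaks over nearly the same bases. The promoter peaks of Hdac2 held 10, 6 and 12 footprints, against 4, 4 and 6 for Hdac1.

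Replicate 2 gave the highest signal at Kdm1a, Rcor1, Hmg20b and Hdac1 but not at Hdac2. Over all genes with an open promoter the median signal of the 3 replicates was 5.03, 5.56 and 4.64. The part of that library in the spread at Rcor1 and Hmg20b was not tested.

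Outside the promoters, Gfi1b and Rcor1 had more open regions than the other 5 genes. Gfi1b had 6, 10 and 12 distal peaks, those over 1 kb from any annotated start, in replicates 1, 2 and 3. Gfi1 had 0, 1 and 1. The difference was 6, 9 and 11 peaks, a mean of 8.67 ± 2.52 (SD, n = 3), with the same direction in 3 of 3 replicates. A two-sided exact sign-flip permutation test gave p = 0.25, the smallest value that 3 replicates allow, so the design cannot reach 0.05. Peaks of different replicates that shared at least 1 bp were joined into regions. By that count Gfi1b had 6 regions common to all replicates of 12 seen in any, and Gfi1 had 0 of 1. With distal set at over 2 kb from any start, the 6 common regions of Gfi1b fell to 3. As many or more common regions as at Gfi1b were found at 1.50% of protein-coding genes, and none at 51.0%. Among 4644 genes within a factor of 1.5 of the Gfi1b length of 12.5 kb, 1.34% had as many. Gfi1 has a similar length of 9.38 kb.

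Rcor1 had 7, 16 and 14 distal peaks and 7 common regions, a number that 0.808% of all genes and 0.701% of 2853 genes of like length reached. The 7 common regions of Rcor1 fell to 4 with the upper 50% of peaks by signal and to 4 with distal set at over 2 kb. Hmg20b (2, 8 and 6 peaks) and Hdac1 (3, 8 and 4 peaks) each had 2 common regions, which 24.7% of genes reached. Kdm1a (1, 4 and 1 peaks) had 1, which 49.0% reached, and Hdac2 (0, 1 and 0 peaks) had none. Replicate 1 never had the most distal peaks at any of the 7 genes.

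**Figure D2:**
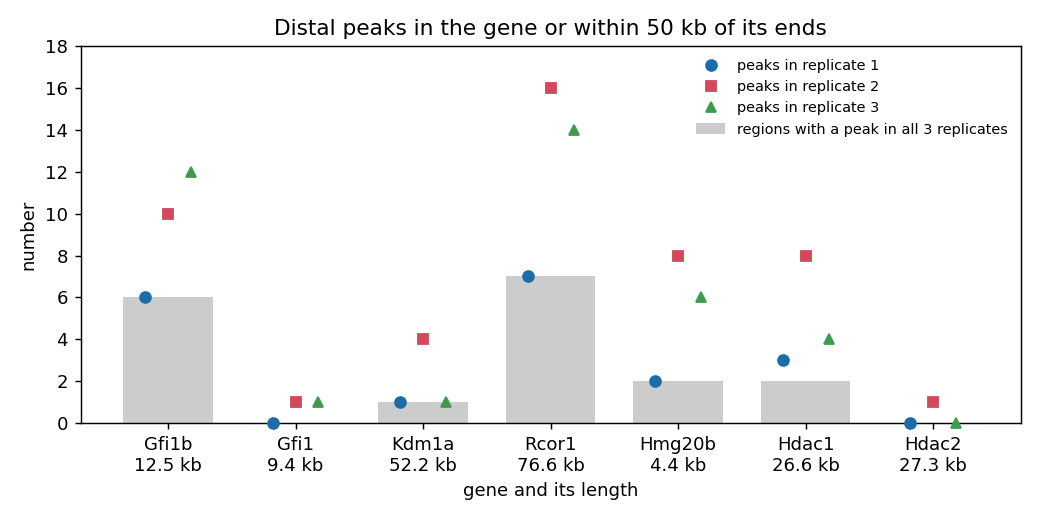
Number of distal peaks in or within 50 kb of each of the 7 genes in each replicate (markers) and number of regions common to all 3 replicates (bars, from 0). Gfi1b has 6 common regions and Rcor1 7, while Gfi1 and Hdac2 have 0.

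The 3 Gfi1b regions with the highest mean signal and the single region at Gfi1 are shown on the genes' own minus strand, in GRCm38.p6, because they set the genes apart. Each is named by its distance in kb from the gene start, with + for downstream and - for upstream. The windows are chr2:28617071-28617270, chr2:28602311-28602510, chr2:28598116-28598315 and chr5:107759241-107759460. Capitals mark exact matches to the motifs searched, on either strand.
Gfi1b+4.8: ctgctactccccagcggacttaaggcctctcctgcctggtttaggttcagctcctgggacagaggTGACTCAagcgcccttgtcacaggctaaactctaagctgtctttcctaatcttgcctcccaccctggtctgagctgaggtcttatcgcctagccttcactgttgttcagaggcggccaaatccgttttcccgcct
Gfi1b+19.6: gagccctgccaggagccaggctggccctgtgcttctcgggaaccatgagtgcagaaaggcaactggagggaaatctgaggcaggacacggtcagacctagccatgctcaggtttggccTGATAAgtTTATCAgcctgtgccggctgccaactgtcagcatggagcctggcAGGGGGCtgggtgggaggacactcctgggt
Gfi1b+23.8: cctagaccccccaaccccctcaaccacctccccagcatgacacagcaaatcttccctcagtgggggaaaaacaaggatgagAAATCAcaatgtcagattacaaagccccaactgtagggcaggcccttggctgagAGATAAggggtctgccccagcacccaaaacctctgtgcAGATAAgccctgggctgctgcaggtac
Gfi1-33.2: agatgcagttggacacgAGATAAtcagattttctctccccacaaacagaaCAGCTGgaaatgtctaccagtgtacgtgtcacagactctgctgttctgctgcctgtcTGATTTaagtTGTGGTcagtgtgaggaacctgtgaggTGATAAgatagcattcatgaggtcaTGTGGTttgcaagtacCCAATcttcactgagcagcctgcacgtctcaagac

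The strongest distal region of Gfi1b lay 19.6 kb downstream of the gene start, between genes, with the innermost start of Gfi1b itself as the nearest protein-coding start. Its signal was 5.04, 6.88 and 4.18 in replicates 1, 2 and 3, with a mean of 5.37 ± 1.38 (SD, n = 3). That is higher in each replicate than the Gfi1b promoter peak of either list. The window held 2 TGATAA matches on opposite strands, separated by 2 bases, at 28602379 to 28602384 and 28602387 to 28602392. Neither lay in a footprint of any replicate. The nearest footprint in replicate 1 ended just beside them, at 28602358 to 28602377. Each replicate had 3 footprints in the region, but no base was in a footprint of all 3. The window also held 1 CTCF core (AGGGGGC), of which 1 base was in a footprint, in replicate 3 only.

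The region 23.8 kb downstream had signals of 2.66, 5.37 and 2.81 (mean 3.61 ± 1.52, SD, n = 3) and 4, 6 and 10 footprints. Its window held 2 AGATAA matches and 1 AAATCA match, all outside the footprints of every replicate. Outside that window but in the same region, a footprint of replicate 3 at 28598327 to 28598333 had a TGATAA match within 3 bp. The region 4.8 kb downstream, in an intron of Gfi1b, had signals of 2.65, 4.10 and 2.54 (mean 3.10 ± 0.872, SD, n = 3). Its window held 1 NF-E2 motif (TGACTCA), also outside all footprints. All 3 regions were highest in replicate 2.

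The other 3 common regions of Gfi1b had lower mean signals and were nearer to Gtf3c5, a gene for a subunit of the RNA polymerase III factor TFIIIC, than to Gfi1b. The signals were 3.21, 1.93 and 2.39 at 24.8 kb downstream, 2.62, 3.09 and 2.86 at 29.0 kb, and 1.75, 3.16 and 1.91 at 36.6 kb. The last lies 1.66 kb from a start of Gtf3c5. The region at 24.8 kb was the only one of the 6 that was highest in replicate 1, where it was second to the one at 19.6 kb. In replicate 3 the region at 29.0 kb was second. By nearest start, 2 of the 6 common regions belong to Gfi1b, those at 4.8 and 19.6 kb, and 4 to Gtf3c5. Proximity does not show which gene a region acts on.

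The remaining 6 regions at Gfi1b were missing from the shorter list of replicate 1. Replicates 2 and 3 shared 4 of them, with signals from 0.636 to 1.25. Replicate 3 alone held the other 2, including 1 of 0.904 at 23 kb downstream. Upstream of Gfi1b no region was common to the shorter lists of all 3 replicates. The nearest start of both upstream regions, 18 and 32.5 kb away, was Tsc1. The longer list of replicate 1 held a peak at both, with signals of 1.18 and 0.819.

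**Figure D3:**
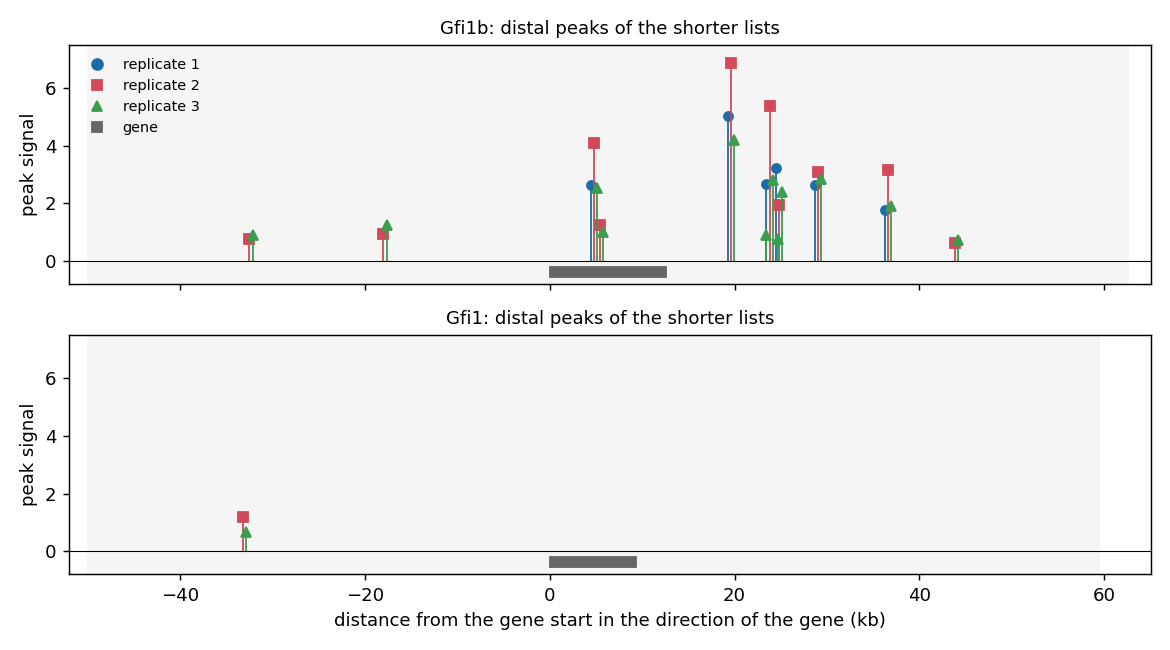
Distal peaks of Gfi1b and Gfi1 by distance from the gene start in kb (horizontal axis, downstream positive) and signal (vertical axis), in each replicate. Gfi1b has 5 regions common to all replicates downstream of the gene and 1 in it, led by the one at 19.6 kb, whereas Gfi1 has 1 weak region, 33.2 kb upstream, in replicates 2 and 3.

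The Gfi1 region, 33.2 kb upstream in an intron of Evi5, was listed at 1.19 and 0.655 in replicates 2 and 3. In replicate 1 only the longer list held it, at 0.794. It held 3 footprints in replicate 2 and 0 in replicate 3. Although weak, its window of 220 bases, which is the peak of replicate 2, carried matches to several of the motifs searched. Both GATA motifs were present once each. The GFI1 motif AAATCA, the E-box CAGCTG and the box CCAAT were each present once, and the RUNX motif TGTGGT was present 2 times. In replicate 2, all 6 bases of 1 RUNX motif and 3 bases of TGATAA were in footprints. The AAATCA match was outside the footprints of replicates 1 and 2, and its 6 bases lay in a footprint of replicate 3 that was not wholly inside a peak of the shorter list.

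In mouse blood cells, enhancers of Gfi1b are known by distances of +13, +16 and +17 kb, and one of Gfi1 by -35 kb. Counted from the 5′ end of each gene record, no peak of the shorter list was centred within 1 kb of any of these positions, in any replicate. The origin matters, since Gfi1b has an annotated start at 28615405 and Gfi1 one at 107724343, each inside the gene. Counted from these, an origin chosen after the positions had been seen, the strongest Gfi1b region lay at 13.1, 13 and 13 kb in replicates 1, 2 and 3. The region with the next highest mean signal lay at 17.2, 17.2 and 17.3 kb. A peak near +16 kb was in replicate 3 only, at 16.4 kb with a signal of 0.904. The Gfi1 region then lay at -35 kb in replicate 2 and -34.9 kb in replicate 3.

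Among the corepressor genes, the strongest distal region lay 46.9 kb upstream of Rcor1. Its signals were 9.88, 10.8 and 8.87 (mean 9.84 ± 0.947, SD, n = 3), about level with the Rcor1 promoter in replicate 1 and below it in replicates 2 and 3. A neighbour 47.6 kb upstream had 5.68, 5.17 and 4.55 (mean 5.13 ± 0.567, SD, n = 3). Both lie nearest to Ankrd9. Of the 7 common regions of Rcor1, 4 had Rcor1 as the nearest protein-coding gene, and these were weaker. Their means were 1.94 ± 0.231 at 10.6 kb upstream, 1.62 ± 0.341 at 3.91 kb upstream, 0.773 ± 0.0981 at 1.44 kb upstream and 1.71 ± 0.679 in an intron at 49.1 kb downstream (SD, n = 3 each).

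Hdac1 had a common region 42.7 kb upstream, nearest to Fam167b, with signals of 4.89, 4.37 and 4.20 (mean 4.48 ± 0.361, SD, n = 3). Its other, 41.9 kb downstream, averaged 2.36 ± 0.123 (SD, n = 3). The 2 common regions of Hmg20b averaged 4.87 ± 1.74 at 31.7 kb upstream and 3.99 ± 0.724 at 12.3 kb upstream (SD, n = 3 each). The second overlaps an exon of Mfsd12. The only common region of Kdm1a, 46.4 kb upstream in an exon of Ephb2, averaged 2.18 ± 0.144 (SD, n = 3). None of these 5 regions had the corepressor gene as its nearest protein-coding start.

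Footprints at the same bases in all replicates were seen at some of these distal regions and not at the Gfi1b regions 19.6 and 4.8 kb downstream. The 3 windows below were chosen for this trait, with capitals for bases inside footprints of all 3 replicates. Each is the common region of Gfi1b, Rcor1 or Hdac1 with the most such bases. Counting footprints wholly inside a peak, these were 41, 38 and 49. The other common regions had 0 to 24 at Rcor1 and 7 at Hdac1. The windows are chr2:28597075-28597274 on the minus strand, chr12:110992361-110992560 on the plus strand and chr4:129585271-129585470 on the minus strand, in GRCm38.p6.
Gfi1b+24.8: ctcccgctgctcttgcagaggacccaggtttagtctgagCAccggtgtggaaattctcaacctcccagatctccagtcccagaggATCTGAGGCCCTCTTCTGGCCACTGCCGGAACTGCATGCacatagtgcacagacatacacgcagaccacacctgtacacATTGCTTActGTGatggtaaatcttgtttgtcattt
Rcor1-46.9: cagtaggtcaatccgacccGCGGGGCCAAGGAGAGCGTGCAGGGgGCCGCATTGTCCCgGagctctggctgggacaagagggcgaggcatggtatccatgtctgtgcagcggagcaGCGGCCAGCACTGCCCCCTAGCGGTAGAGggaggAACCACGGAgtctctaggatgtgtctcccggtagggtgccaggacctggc
Hdac1-42.7: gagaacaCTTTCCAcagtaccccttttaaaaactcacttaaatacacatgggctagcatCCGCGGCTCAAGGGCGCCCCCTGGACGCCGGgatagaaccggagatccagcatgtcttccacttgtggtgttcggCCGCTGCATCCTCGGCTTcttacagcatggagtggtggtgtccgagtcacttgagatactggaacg

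At Gfi1b the long shared stretch was in the region 24.8 kb downstream. The footprint there ran from 28597150 to 28597192 in replicates 1 and 2, 43 bp each, and from 28597151 to 28597189 in replicate 3, 39 bp. No base of the RUNX match in that window (TGTGGT) was in a footprint. The genome sequence marks 59.5% of this window as repeats, against 0% of the windows at 4.8 and 19.6 kb and 9.50% of the one at 23.8 kb. The footprints of the 6 common regions shared 41 bases over all replicates at 24.8 kb, 24 at 29.0 kb, 18 at 36.6 kb, 11 at 23.8 kb, and 0 at both 19.6 and 4.8 kb. The 3 regions with the highest mean signal thus shared 0, 11 and 0 bases. These numbers count footprints wholly inside a peak, whereas the capitals also include footprints that reach past a peak's end.

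**Figure D4:**
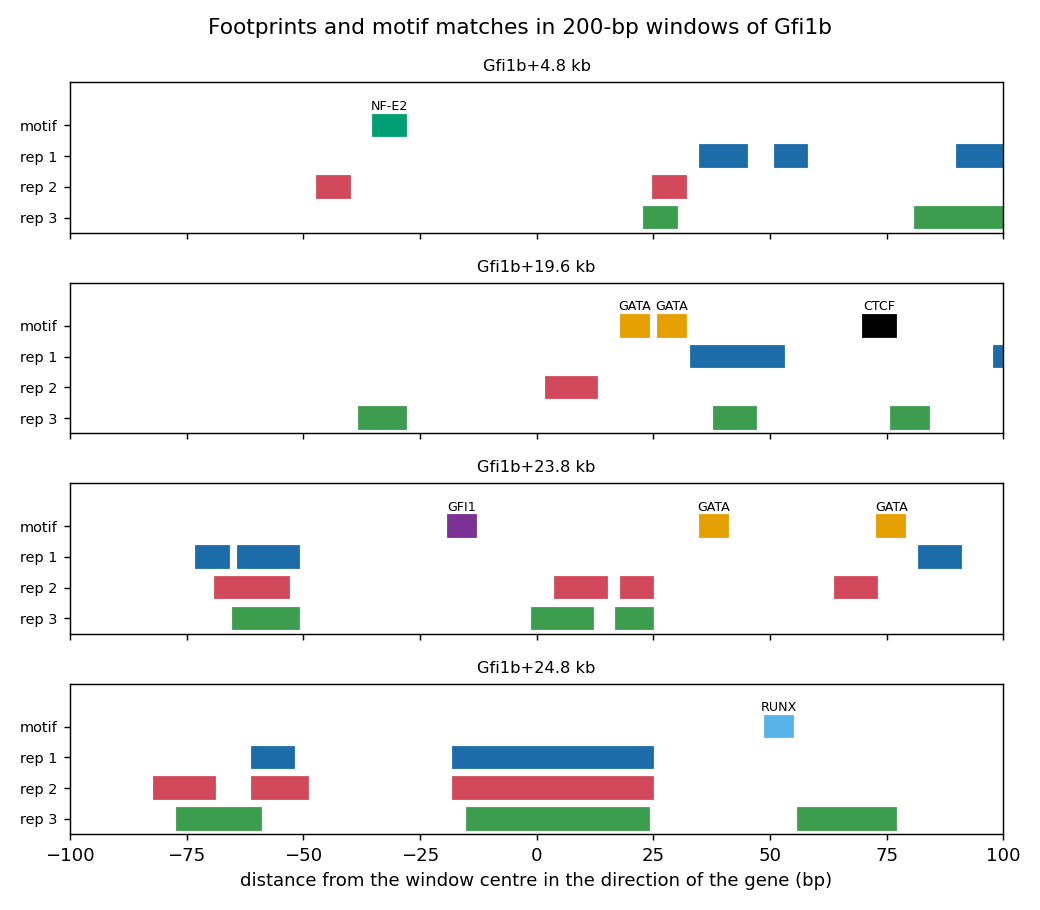
Footprints of 4 common distal regions of Gfi1b in each replicate (coloured bars, rows) and motif matches (top row), by distance in bp from the centre of each 200-bp window, in the direction of the gene. The region at 24.8 kb has nearly the same footprint in all 3 replicates. At 19.6 and 4.8 kb some footprints of single pairs of replicates overlap, but no base is in a footprint of all 3.

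The regions upstream of Rcor1 and Hdac1 carried the core of the CTCF motif, AGGGGGC, which was added to the search after the footprints had been seen. CTCF is an architectural protein that anchors chromatin loops. The Rcor1 window held 2 matches, and all 7 bases of one lay inside footprints in each replicate. All 7 bases of the other did so in replicates 1 and 2. In replicate 3, 2 footprints overlapped that match, and the larger overlap was 4 bases. The Hdac1 window held 1 match, with all 7 bases inside footprints in each replicate. Of the 18 regions common to all replicates at the 7 genes, 4 had AGGGGGC in a window of 200 bp, which is 22.2% against 18.5% of all 8810 common distal regions. Of all footprints in peaks, 3.41%, 3.33% and 3.64% had it. The search also covered another core of the CTCF motif (AGGTGGC). This other core was in 1 of the 18 regions, which is 5.56% against 14.5% of all common distal regions. The 2 cores thus differed from their background shares in opposite directions.

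GATA matches (AGATAA or TGATAA, which cannot coincide) were present in 5 of the 18 regions, 27.8%, against 21.4% of all common distal regions. Besides the Gfi1b regions at 19.6 and 23.8 kb, they were those at 10.6 kb upstream and 49.1 kb downstream of Rcor1 and at 12.3 kb upstream of Hmg20b. The GFI1 motif AAATCA was in 2 of 18, 11.1% against 6.63%, at Gfi1b and Rcor1. With 18 regions, each share moves by several points for 1 region. In the peaks of all 7 genes there were 83, 144 and 137 footprints, a mean of 121.3 ± 33.4 (SD, n = 3), and 1, 3 and 2 of them had a GATA match within 3 bp. The order of these counts follows the numbers of footprints inside peaks over the genome, 86252, 139774 and 120071. Of those genome-wide footprints, 0.334%, 0.972% and 0.521% had AGATAA within 3 bp in replicates 1, 2 and 3. For TGATAA the shares were 0.214%, 0.541% and 0.277%.

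Other genes of LSD1 and related corepressor complexes were open almost throughout. Of 29 listed genes, 27 (93.1%) had a promoter peak in every replicate, against 50.9% of all genes. Among the highest mean signals were those of Gatad2a, a NuRD subunit gene, with 14.2, 29.9 and 13.9 (19.3 ± 9.17, SD, n = 3), and Mbd3, another NuRD gene, with 11.6, 19.8 and 11.6 (14.3 ± 4.72, SD, n = 3). The exceptions were Mta1, a NuRD gene listed in replicate 3 only at 1.16, and Ajuba, which encodes a LIM protein that binds the SNAG domain, listed in replicates 1 and 2 at 1.71 and 1.24. The longer list held both in all replicates. The relatives of Rcor1 were weaker than Rcor1, with means of 2.19 ± 0.215 for Rcor2 and 2.95 ± 0.501 for Rcor3 (SD, n = 3 each), and each was below Rcor1 in all 3 replicates. The relative of Kdm1a, Kdm1b, averaged 12.9 ± 2.90 (SD, n = 3), but its peak also covers a start of Tpmt.

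Genes known as targets of GFI1B were a mixed group. Of 11 listed genes, which include Gfi1b and Gfi1 themselves, 7 (63.6%) had a promoter peak in every replicate, against 50.9% of all genes. Bcl2l1, which encodes the survival protein BCL-XL, was the strongest at 9.46, 12.5 and 9.17 (10.4 ± 1.83, SD, n = 3). Socs3, a feedback inhibitor of cytokine signalling, averaged 8.35 ± 1.75, and its relative Socs1 averaged 3.86 ± 0.401 (SD, n = 3 each). The progenitor factor genes Myb and Meis1 averaged 3.01 ± 0.107 and 1.97 ± 0.434, the cell cycle inhibitor gene Cdkn1a 2.65 ± 0.413 and the TGF-β co-receptor gene Tgfbr3 2.12 ± 0.300 (SD, n = 3 each). Gata2, the GATA factor gene of early progenitors, was listed at 1.15 in replicate 2 and 1.38 in replicate 3 and in neither list of replicate 1. Rgs18, a regulator of platelet signalling, was listed in replicate 2 only, at 1.13. Gata2 and Gfi1b thus had the same pattern in the shorter list, open in replicates 2 and 3 with signals from 1.15 to 1.71. Among the markers, Gp1ba, Cd34, Flt3, Foxa3 and Kdr were also listed in replicates 2 and 3 only. The longer list of replicate 1 held Gfi1b, at 1.51, but not Gata2.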

How the data were processed

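DNase-seq peaks, footprints and cut densities were used for 3 biological replicates of 1 group. Per the deposited notes, the authors made each file per sample from filtered mm10 alignments, without pooling. No source used here names the aligner, the callers or the depth. The signal of a peak is its maximum cut density, which the authors scaled to read depth. The deposited FDR values describe local cut density, and every deposited footprint carries an FDR of 0.01, so none can be ranked.

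Gene starts came from GENCODE M21, sequence from GRCm38.p6, and promoters from RefSeq, which listed 6 of the 7 genes. Of the 2 peak lists per replicate the shorter was used. A promoter peak lies within 500 bp of any annotated start. Distal peaks lie over 1 kb from every start. Footprints were counted where wholly inside a peak. Window sequences were searched for exact motif matches. All genes, every listed target, the 3 strongest other complex genes and any not open throughout were named by rule, except for 1 gene that is not reported here. Members and lists were chosen with earlier results of these data known. With 1 group, comparisons were made within replicates, by an exact sign-flip test. Scripts used Python 3.11.15, numpy 2.4.6, scipy 1.17.1 and matplotlib 3.10.9 and were tested on simulated data.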

Additional observations from a re-analysis of the deposited data

How the results depend on the processing

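Over 12 settings, 129 values were recomputed, of which 113 stayed within the spread or within 1.5 times the count, 16 moved and 0 reversed. The difference between Gfi1b and Gfi1 of 6 common distal regions fell to 3 when distal meant over 2 kb from a start. It was 7 with the longer list, 5 with the upper 50% of peaks and 6 to 9 with 1 replicate left out. The number of the 7 genes open in all replicates was 5 to 6 with 1 replicate left out. Without replicate 1 it was 6, since the Gfi1b promoter then counts as open, with a mean of 1.69. The longer list also gave 6, and a Gfi1b mean of 1.63. Without replicate 1 the common distal regions rose to 10 at Gfi1b, 13 at Rcor1, 6 at Hmg20b, 4 at Hdac1 and 1 at Gfi1. The cause was not tested. Footprints averaged 110 to 140.5 with 1 replicate left out, and of the other complex genes 27 to 28 were open. Of those, 22 were open with 1 start per gene. No paired analysis was possible because there is only 1 group, so no groups share replicate numbers; the difference between Gfi1b and Gfi1 was taken within each replicate. No comparison of Gfi1b and Gfi1 promoter signals could be run under any setting, since Gfi1 had no peak. Depth is unknown, so weak peaks absent from replicate 1 may be undetected there.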
